A study of Mus musculus with 6 samples.

Results

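A set of 163 probes on the mouse m6A mRNA and lncRNA epitranscriptomic array was detected in the antibody-bound RNA of sperm on all 6 arrays and in the unbound RNA on none. They were 0.269% of the 60641 distinct probes whose names begin with ASMM10, the transcript probes of the array. A probe entered the set when the scanner software called it well above background in the bound channel (IP) on every array and not well above background in the supernatant channel (Sup) on every array. They are called IP-only probes here, which describes detection by the software and not an absence of RNA from the supernatant. By comparison, 15249 probes (25.1%) were detected in both channels on all 6 arrays and 165 (0.272%) in Sup alone.

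N6-methyladenosine (m6A) is a methyl mark that the METTL3 and METTL14 methyltransferase complex places on adenosines of mRNAs and lncRNAs, that demethylases such as FTO and ALKBH5 can take off, and that reader proteins bind. An antibody against m6A pulls down marked RNA together with some unmarked RNA, while the rest stays in the supernatant. Mature sperm have largely stopped transcription and carry little RNA, much of it left from spermatogenesis.

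The study compared sperm of C57BL/6N males fed normal chow (NC, 3 samples) with sperm of males fed a diet with 60% fat (HFD, 3 samples), from 5 to 15 weeks of age, to ask whether diet changes the m6A marks of sperm RNA. The deposited labels give week 10 as the age, which equals the 10 weeks on diet. Per the study's methods, sperm were released from cut epididymides and passed through a lysis step meant to clear somatic cells. Replicates were taken to be different donors, and whether a sample pooled animals is not given in the sources used here. The p-values below measure the spread between these samples. For the limma fits, they and the SEs draw each probe's variance towards a value shared by all tested probes. On each array, IP RNA was labelled with Cy5 and Sup RNA of the same sample with Cy3. The files pair these probes with neither a gene nor a sequence, so the members are given by probe name. The purity of the sperm was not checked on marker genes.

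The arrays were not equally sensitive, and this bore on who entered the set. NC 1 had the smallest share of non-control spots well above background, 28.5% in IP and 35.3% in Sup, and HFD 3 the largest, 55.1% and 50.3%. HFD 3 was also scanned apart from the other 5 arrays. Among probes undetected in Sup on every array, 522 were detected in IP on exactly 5 arrays, and 506 of these missed the rule on NC 1 alone. Among probes detected in IP on all 6 arrays, 170 were detected in Sup on exactly 1 array, and for 143 of these the array was HFD 3. Applied to the other 5 arrays, the rule took 670 probes when NC 1 was left out and 307 when HFD 3 was left out, against 167 to 179 when any of the other 4 arrays was left out. All 163 probes were in both larger sets.

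The IP-only probes were unevenly spread over the probe name prefixes, whose meaning is not given in the sources used here. Of the 163, 147 (90.2%) began with ASMM10EP3A, a prefix that covers 79.2% of the transcript probes. The prefix ASMM10EP3B had 15 members (9.20%, against 14.0% of the array). The prefix ASMM10SM1 had 1 member (0.613%, against 6.74%), the probe ASMM10SM1100144229. Most of this order was shared by detected probes in general, since the probes detected in both channels were 85.1% ASMM10EP3A, 10.7% ASMM10EP3B and 4.19% ASMM10SM1. The Sup-only probes had the opposite lean, with 51 of 165 (30.9%) from ASMM10SM1 and 103 (62.4%) from ASMM10EP3A. Counted the other way, 0.0245% of ASMM10SM1 probes were IP-only and 1.25% were Sup-only, while the shares for ASMM10EP3A were 0.306% and 0.214%. These are shares of a set chosen on its readout and were not tested.

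The IP-only probes were dim in the channel that defined them. Their median processed IP intensity, in scanner units after the software's background correction, was 298, 400 and 392 on NC 1 to NC 3. On HFD 1 to HFD 3 it was 433, 352 and 451. Probes detected in both channels had medians from 1018 on NC 1 to 2004 on HFD 3. The spread within the set was wide on every array, from 195 to 1459 on NC 1 and from 125 to 3257 on HFD 3.

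Ranked by mean IP brightness among the 16925 probes detected in IP on all 6 arrays, the median member stood at percentile 8.05. In all, 135 members (82.8%) fell in the dimmest quartile and 26 (16.0%) in the next. Another 2 fell in the quartile above that, and 0 in the brightest. On the scale used for the diet comparison, log2 IP intensity minus the mean log2 IP intensity of 13 spike-in probes of the same array, 162 of the 163 members lay below the spike-in mean on all 6 arrays. Raw IP signal over the local background around each spot gave the same picture in smaller units. Its median over the members ran from 22.0 on NC 1 to 46.0 on HFD 3. The 308 negative control spots, which match no transcript, had medians of 0.5 to 6.0 over local background. All 163 members exceeded the 95th percentile of these spots on each of the 6 arrays, which follows largely from the rule that chose them.

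Each member was printed as 1 spot, so its values have no within-array repeat. None of the 978 member spots was marked as saturated, non-uniform or an outlier in either channel. The range of a member's scaled log2 IP over the 6 arrays had a median of 0.86. The steadiest was ASMM10EP3A113594980, with values of -2.63, -2.64 and -2.90 in NC and -2.69, -2.74 and -2.89 in HFD. The most variable was ASMM10EP3B100008444, with -2.88, -1.78 and -1.02 in NC and -0.43, -0.89 and -1.26 in HFD. NC 1 was the dimmest array for the latter, and the groups overlapped because NC 3 lay above HFD 3.

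The Sup channel of these probes was not at 0. Raw Sup signal over local background had medians of 16.5, 17.0 and 17.0 on NC 1 to NC 3 and 14.5, 14.5 and 13.0 on HFD 1 to HFD 3, where the local background itself was 12.0 to 16.0. No member was below 4.0 or above 24.0 on any array. Negative control spots also read above local background in Sup, with medians of 12.3, 12.0 and 11.5 on NC 1 to NC 3 and 9.0, 10.5 and 6.0 on HFD 1 to HFD 3. On every array, 153 to 160 of the 163 members were above the median negative control, and 82 (HFD 2) to 142 (HFD 3) were above the 95th percentile of the negative controls. The members' raw Sup remainder and the negative controls thus both had lower medians on the HFD arrays, and the part of the controls' shift in it was not tested. Processed Sup intensity had overlapping medians, 48.7, 59.4 and 69.0 on NC 1 to NC 3 and 68.2, 51.7 and 68.5 on HFD 1 to HFD 3. Probes detected in both channels had Sup medians over local background of 80.0 to 156.

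The scanner software also carries a looser call, signal positive and significant against background, which the rule did not use. In Sup, 113, 118 and 134 members passed it on NC 1 to NC 3 and 139, 120 and 148 on HFD 1 to HFD 3, or 69.3% to 90.8%. Over the 6 arrays, 58 members passed it on all of them, 103 on 1 to 5 and 2 on none. Those 2 were ASMM10EP3A109541445 and ASMM10EP3A115627368, whose mean Sup over local background was 12.3 and 11.1.

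At the edge of the rule the Sup signal did not sort members from non-members. The members with the highest mean Sup over local background were ASMM10EP3A105844039 at 18.5 and ASMM10EP3A103603321 at 18.0, a value that ASMM10EP3A101377187 shared. The nearest probes outside, called well above background in Sup on HFD 3 alone, were ASMM10EP3A112324329 at 14.7 and ASMM10EP3A106024725 at 14.8. The software's call depends on each array's own background, and on HFD 3 the lowest Sup intensity that passed was 99.4, against 119 to 156 on the other arrays.

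Because no member was well above background in Sup, IP over Sup is a bound for these probes. The mean scaled IP was set against, on each array, the higher of the probe's own Sup and the lowest Sup signal well above background, both relative to the spike-in probes of their channel. The bound had a median of at least 2.22-fold and ran from 1.04 to 12.6 over the members. It passed 2-fold for 101 members and 4-fold for 22. With no spike-in scaling the median was at least 2.98-fold, and after loess and Aquantile normalization of the channels at least 3.03-fold. These bounds rest on means over both diets. Within a diet, the bound moves with the Sup limit of its arrays as well as with IP. The lowest processed Sup well above background was 137, 156 and 123 on NC 1 to NC 3. On HFD 1 to HFD 3 it was 119, 133 and 99.4. ASMM10EP3A101377187, whose log2 IP difference between the diets was -0.44, still had bounds of 2.58 in NC and 2.79 in HFD. For the median member, ASMM10EP3B104971526, the bound was 1.65 in NC and 2.98 in HFD. For the dimmest member, ASMM10EP3A101871568, it was 0.925 in NC and 1.17 in HFD. Not every member had the higher bound in HFD, as ASMM10EP3A122133377 had 1.69 in NC and 1.61 in HFD. The set was chosen on both channels, so the bounds are a description with no test, and without a dye swap they are open to dye bias.

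The brightest member, ASMM10EP3A113007171, had processed IP intensities of 721, 3041 and 1741 on NC 1 to NC 3 and 2656, 2977 and 3257 on HFD 1 to HFD 3. Its Sup signal over local background was 18.0, 20.5 and 21.0 in NC and 16.0, 14.0 and 10.0 in HFD. It was the single member above the spike-in mean on any array. Over both diets its IP was at least 12.6-fold higher than its Sup, with bounds of 7.73 in NC and 20.6 in HFD. These 2 bounds also carry the Sup limits of their arrays, which differed between the diets. Its IP alone was 1.84-fold higher in HFD, with overlapping groups. The second, ASMM10EP3A105844039, read 1459, 1610 and 1282 in NC and 1887, 1218 and 1816 in HFD. Its IP was at least 8.97-fold higher than its Sup, and its mean raw Sup over local background was the highest of the set.

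The next brightest were ASMM10EP3A117395923 (at least 6.91-fold higher in IP), ASMM10EP3A118906825 (6.29), ASMM10EP3B100028179 (6.29) and ASMM10EP3A100081800 (6.02). Processed IP intensities of these 4 ran from 398, for ASMM10EP3B100028179 on NC 1, to 1678, for the same probe on HFD 3. The dimmest IP reading was on NC 1 for all but ASMM10EP3A118906825, whose dimmest was on NC 3, with 731. Of the 10 brightest members, 7 were ASMM10EP3A and 3 were ASMM10EP3B, and the median scaled IP of all members was -2.76 for ASMM10EP3A and -2.52 for ASMM10EP3B.

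HFD was compared with NC in the scaled IP signal, to ask whether bound RNA at these probes differed with diet. Over the 163 probes, the median scaled log2 IP was -2.87, -2.62 and -2.88 on NC 1 to NC 3 and -2.48, -2.71 and -2.75 on HFD 1 to HFD 3. The groups overlapped, with NC 2 above both HFD 2 and HFD 3. The means of these medians were -2.79 ± 0.14 in NC and -2.65 ± 0.15 in HFD (SD, n = 3). The median difference of a member, HFD minus NC, was 0.10, with quartiles of -0.16 and 0.40 and a range from -0.75 to 1.30. Over all 30224 probes tested the median was 0.34, and over the probes detected in both channels it was 0.30. Without a measured Sup, more RNA of a transcript and a larger bound share of it cannot be told apart, nor can fewer cells of a type and less RNA per cell.

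With the study's thresholds, a fold change above 1.5 with an unadjusted p below 0.05 in limma's test over all tested probes, 16 members (9.82%) were called higher in HFD. Of all tested probes, 16.0% were called higher, and of those detected in IP on all 6 arrays, 13.3%. Called lower was 1 member (0.613%), against 1.09% of all tested probes and 0.849% of those detected in IP on all 6 arrays. With these 30224 probes, processed intensities and all 6 arrays, no member and no other probe passed an adjusted p of 0.05 in limma with Benjamini-Hochberg adjustment, whose lowest value was 0.21, while 17 members (10.4%) and 17.9% of all tested probes had an unadjusted p below 0.05, as had 15.4% of those detected in IP on all 6 arrays. All HFD values exceeded all NC values for 23 members (14.1%), against 23.4% of all tested probes and 25.4% of those detected in IP on all 6 arrays. All HFD values were below all NC values for 7 members (4.29%), against 2.05% and 2.26%. The difference was above 0 for 97 members (59.5%), against 80.7% and 81.0%. Without HFD 1, 5 members (3.07%, against 7.77% of all tested probes) were called higher, all 5 among the 16. Without NC 3, 10 members (6.13%, against 15.3%) were called higher, 9 of them among the 16. Without background correction there were 8 (4.91%, against 8.86%), 5 of them among the 16, and with normexp 1 (0.613%, against 6.02%), which was not among them. The methods' t-test called 8 higher (4.91%, against 8.47%), all 8 among the 16.

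The sign of the set's median depended on the scaling, on the background correction and on HFD 1. Without background correction, with normexp or without HFD 1 this median was slightly negative. Median centring moved all probes of an array by the same amount. When each array was centred on its median in place of the spike-ins, the median over all tested probes moved from 0.34 to 0.01 and that of the members from 0.10 to -0.24. The calls over all tested probes then split 1751 higher (5.79%) to 1403 lower (4.64%). Among the members, 4 were called higher and 18 lower, and these 4 were among the 16 called higher with the spike-ins. With quantile normalization the members' split was again 4 (2.45%) to 18 (11.04%), against 5.08% higher and 5.45% lower over all tested probes. With the spike-in scaling kept, the members' median was -0.028 without background correction and -0.027 with normexp, against 0.084 and 0.032 over all tested probes. Without HFD 1 it was -0.003, against 0.29 over all tested probes.

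NC 1 also moved with this comparison. NC 1 was the dimmest array for 42 members (25.8%), whereas it was the dimmest for 49.98% of all tested probes. NC 3 was the dimmest for as many members, 42 (25.8%, against 16.7%), and HFD 2 for 35 (21.5%, against 9.46%). A probe too dim on NC 1 could not enter the set. When NC 1 was left out of both the rule and the fit, an alternative added after seeing the data, the 670 probes that met the rule had a median difference of 0.20, against 0.23 over all tested probes. Of them, 51 (7.61%) were called higher, against 11.6%, and 7 (1.04%) were called lower, against 1.57%. Without HFD 3 in either step the 307 probes had a median of 0.19, against 0.37, with 25 (8.14%) called higher, against 13.8%, and 9 (2.93%) called lower, against 1.34%. The part of array sensitivity in the members' lower median was not tested.

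Brightness was the other measure that moved with the diet difference. In the dimmest quartile of probes detected in IP on all arrays, the 135 members had a median difference of 0.08 against 0.18 for the other 4097 probes, and 8.15% against 7.71% were called higher. In the next quartile, the 26 members had 0.34 against 0.30, with 5 (19.2%) against 13.9% called higher. Probes were also arranged by the number of arrays on which Sup was detected. The median difference was 0.10 with 0 arrays, 0.15 with 1, 0.13 with 2, 0.17 with 3, 0.22 with 4, 0.26 with 5 and 0.30 with all 6, while median scaled IP climbed from -2.74 to -0.73. The share called higher followed another course, at 9.82%, 7.06%, 2.79%, 5.91%, 9.85%, 14.6% and 13.6% for 0 to 6 arrays. Sup detection and IP brightness rose together along this series and cannot be told apart by it.

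The member with the largest difference was ASMM10EP3A100175382. Its scaled log2 IP was -3.19, -2.28 and -3.06 in NC and -1.43, -1.42 and -1.81 in HFD. All 3 HFD arrays lay above all 3 NC arrays, with a log2 difference of 1.30 (SE 0.31) and an adjusted p of 0.21 in limma with Benjamini-Hochberg adjustment. Its Sup over local background was 13.5, 18.0 and 18.0 in NC and 13.0, 9.0 and 7.0 in HFD, while its processed Sup intensity was 35.8, 49.6 and 96.5 in NC and 111, 38.5 and 21.3 in HFD. The groups were apart on the raw scale, where the negative controls also read lower in HFD, and overlapped on the processed scale, with HFD 1 the highest. ASMM10EP3B100019154 followed among the members whose groups did not overlap, with -2.35, -1.53 and -1.86 in NC and -0.63, -1.03 and -1.13 in HFD. Its log2 difference was 0.98 (SE 0.29). Under each of 17 other settings these 2 probes stayed past the study's thresholds, except with normexp background correction.

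The other named members with higher IP in HFD had smaller or less steady differences. ASMM10EP3A113897304 read -3.16, -2.87 and -2.57 in NC and -1.59, -2.00 and -2.10 in HFD, a log2 difference of 0.97 (SE 0.27). ASMM10EP3A121080773 read -3.08, -3.07 and -2.57 in NC and -1.49, -2.22 and -2.19 in HFD, a log2 difference of 0.94 (SE 0.29). For both, HFD 1 was the brightest array and the groups were apart.

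ASMM10EP3B100042982 had -3.28, -2.66 and -2.51 in NC and -1.58, -1.96 and -2.12 in HFD, a log2 difference of 0.93 (SE 0.29). ASMM10EP3A100109078 had -2.77, -1.42 and -1.99 in NC and -1.10, -1.06 and -1.28 in HFD, a log2 difference of 0.91 (SE 0.35). For the last, the highest NC array, NC 2, came close to the lowest HFD array, HFD 3. The difference of ASMM10EP3A100109078 was 0.56 without NC 1 and 1.23 without NC 2. These 4 calls were lost under 3, 5, 4 and 10 of the 17 other settings, in the order named. The remaining 10 of the 16 calls had log2 differences of at least 0.64. Over all 16 the groups did not overlap for 14, which passing both thresholds with 3 arrays per group makes likely. The share without overlap among all called probes was not counted.

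The single member called lower was ASMM10EP3A122133377. Its scaled log2 IP was -2.86, -2.84 and -2.89 in NC and -3.38, -3.68 and -3.37 in HFD. The NC arrays lay close together and all 3 HFD arrays lay below them, with a log2 difference of -0.61 (SE 0.22) and an adjusted p of 0.24 in limma with Benjamini-Hochberg adjustment. The call was lost under 6 of the 17 other settings, among them leaving out NC 3 and leaving out HFD 2.

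Of the 6 brightest members, only ASMM10EP3A100081800 was called. It read -2.03, -1.41 and -1.52 in NC and -0.77, -0.75 and -1.34 in HFD, with a log2 difference of 0.70 (SE 0.28), and 12 of 17 other settings lost the call. ASMM10EP3A117395923 also had its groups apart, with a log2 difference of 0.49 (SE 0.24) that was under the fold threshold. The brightest probe, ASMM10EP3A113007171, had a log2 difference of 0.88 (SE 0.44), and NC 2 lay among its HFD arrays. Its difference was 0.42 without NC 1 and 1.36 without NC 2, and it passed the study's thresholds under 4 of the 17 other settings. The log2 differences of ASMM10EP3B100028179, ASMM10EP3A118906825 and ASMM10EP3A105844039 were 0.77 (SE 0.39), 0.31 (SE 0.34) and 0.11 (SE 0.28), with overlapping groups. That of ASMM10EP3B100028179 was 0.35 without NC 1 and 1.14 without NC 2. For ASMM10EP3A118906825 it was 0.018 without NC 3, 0.081 without HFD 1 and 0.52 without NC 2.

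By prefix, 14 of the 147 ASMM10EP3A members and 2 of the 15 ASMM10EP3B members were called higher, with median log2 differences of 0.09 and 0.32. Among all probes detected in IP on the 6 arrays, 13.5% of ASMM10EP3A and 12.5% of ASMM10EP3B probes were called higher, with medians of 0.29 and 0.28. The lone ASMM10SM1 member, ASMM10SM1100144229, read -2.71, -2.04 and -2.45 in NC and -2.98, -2.39 and -2.78 in HFD. Its groups overlapped, with a log2 difference of -0.32 (SE 0.28) and an adjusted p of 0.52 in limma with Benjamini-Hochberg adjustment.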

How the data were processed

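For each array the authors deposited the scanner output of Agilent Feature Extraction, version 11.0.1.1 per the submitters' processing notes. Its processed intensity was background corrected and equalized between the dyes by that software. The deposited files also hold median intensities and flags, but no mean intensities, so settings meant for mean signals used medians. Here, processed IP intensities were floored at 1, taken to log2 and reduced by the mean of the 13 of 102 spike-in (ASSPINKEIN) probes that both channels of every array showed well above background. Non-uniform spots were set to missing. Probes well above background in either channel on at least 3 arrays were tested, 30224 in all, with limma 3.58.1 (lmFit, eBayes) in R 4.3.3, tested on simulated data. A count past a threshold meant a fold change above 1.5 with an unadjusted p below 0.05. The study's methods scaled by spike-ins, used these thresholds and a T-test. The number of arrays limits the precision, and an exact permutation test of 3 against 3 cannot give a p below 0.10.

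Members, lists and tests were chosen with earlier results of these data known. Probes named were the 6 brightest members, up to 6 per direction with the largest called difference whose groups did not overlap, members with more than 1 spot (0), and the pair just inside and just outside the rule. Other probes named were chosen after their values were seen. The replicate number of NC 3 was taken from its title, since its source label, C2, carries the number of NC 2. The labels alone do not settle whether NC 2 and NC 3 had different sources. Gene lists (sperm, epididymal, blood cells, m6A enzymes) could not be applied, as the files name no gene for these probes.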

Additional observations from a re-analysis of the deposited data

How the results depend on the processing

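The number of members depended on 2 arrays: it was 167 to 670 with 1 array left out, 670 without NC 1 and 307 without HFD 3, and 856 where 5 arrays sufficed. The Sup remainder, 15.4 scanner units over local background, was 60.9 as processed intensity, which is another unit, and 15.1 to 15.9 with 1 array left out. The 16 higher and 1 lower calls among the members became 4 and 18 with median centring or quantile normalization. With loess and Aquantile they became 2 (1.23%) and 19 (11.7%), against 5.43% and 4.67% of all tested probes. They became 8 and 0 without background correction, 1 and 0 with normexp, 8 and 1 with the methods' t-test, and 0 and 0 after Benjamini-Hochberg adjustment. Of all tested probes, 0.668% were called lower without background correction, 0.208% with normexp and 0.658% with the methods' t-test. The lower count was 0 with no filter, against 1.43% of all tested probes. It was 2 (1.23%, against 0.984%) where IP had to be well above background on all 6 arrays. With 1 array left out, higher calls ran from 5 (without HFD 1, 3.07% against 7.77% of all tested probes) to 21 (without NC 2, 12.9% against 24.9%). They were 10 without NC 3 (6.13% against 15.3%). Lower calls ran from 0 (without NC 3, against 1.02%, or HFD 2, against 0.821%) to 4 (without NC 1, 2.45% against 1.57%). They were 2 without HFD 1 (1.23% against 0.943%) and 3 without HFD 3 (1.84% against 1.34%). The median over the members was -0.24 with median centring or quantile normalization, -0.25 with loess and Aquantile, -0.028 without background correction, -0.027 with normexp, and -0.003 to 0.19 with 1 array left out, lowest without HFD 1. In alternatives added after seeing the data, with members chosen and fitted without NC 1 or HFD 3, calls were 51 and 7, or 25 and 9.

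Over all tested probes, the 4834 higher and 330 lower calls became 1751 and 1403 with median centring, 1535 and 1648 with quantile normalization, 1642 and 1410 with loess and Aquantile, 2677 and 202 without background correction, 1820 and 63 with normexp, 2900 and 166 where IP had to be well above background on all 6 arrays, 2560 and 199 with the methods' t-test, and 0 and 0 after adjustment. Lower calls were 866 with no filter, and higher calls ran from 2349 (without HFD 1) to 7531 (without NC 2), with 2765 without HFD 2. No member passed an adjusted p of 0.05 in limma under any of these settings, with a lowest value of 0.067, without NC 2. Other probes did, with lowest values of 4.7e-13 with normexp, 0.0096 without background correction, 0.032 where IP had to be well above background on all 6 arrays and 0.013 without NC 2. The difference of ASMM10EP3A105844039 was -0.22, -0.23 and -0.21 with median centring, quantile and loess, and -0.075 (without NC 3) to 0.24 (without HFD 2) with 1 array left out, being -0.045 without HFD 1. That of ASMM10EP3A118906825 was -0.025, -0.030 and -0.011 with the same 3 scalings. Median centring moved every probe of an array by the same amount, whether named here or not. The cause of these changes was not tested.

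Same-numbered samples did not deviate together (correlations of 0.01, 0.01 and -0.24), and the main fit used no pairing. Differently numbered samples had correlations of -0.12 to 0.14. Deviations from the means of 3 samples cannot exclude a pairing. With the replicate block, 13 members (7.98%) were called higher and 0 lower, against 13.6% and 0.96% of all tested probes. The scan block holds HFD 3 alone and equals leaving it out. Signals near background limit every value here.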

Other observations

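The array on which a member read highest in scaled IP was most often HFD 1 (71 members, 43.6%, against 37.1% of all tested probes), then NC 2 (45 members, 27.6%, against 16.5%). NC 1 was the highest array for 24 members (14.7%, against 6.24%). These counts were not tested.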
